A study of Mus musculus with 37 samples.

Results

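Cells rich in transcripts of Meis1 were compared with cells in which no Meis1 transcript was counted. A cell was taken as high Meis1 when it held at least 5 counts of the gene, a count being a sequenced molecule assigned to it, and as no Meis1 when it held 0. Of 8563 cells, 483 were high Meis1 cells (5.64%), 5201 were no Meis1 cells, and 2879 held between 1 and 4 counts. The high Meis1 cells held from 5 to 66 counts of Meis1, with a median of 8, and 54 of them held 20 or more. At the lower edge of the rule, 103 cells had 5 counts and 170 cells just outside it had 4. The cells were chosen by these counts, which are given as a description only, and Meis1 is left out of all results.

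All cells came from mouse embryonic fibroblasts of the ICR background, cultured from mouse embryos, 7 days after infection with retroviral vectors that together carried 48 factors, Meis1 among them. High Meis1 and no Meis1 cells alike received this pool. The 37 libraries are technical replicates of 1 biological replicate, with no uninfected control. The promoter that drives the factors is not given in the sources used here, and a count cannot tell a delivered Meis1 transcript from one of the cell's own gene. Every p-value below therefore measures the spread between libraries of 1 culture.

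Meis1 encodes a homeodomain transcription factor of the TALE class, named for extra residues in a loop of the homeodomain. It binds DNA together with Pbx and Hox proteins and is known for its part in limb and trunk patterning, in blood stem cells and, with Hoxa9, in mouse leukaemia. In the mouse heart it is known for its part in the cell cycle arrest of cardiomyocytes after birth.

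Drop-seq, in which each cell is lysed in a droplet beside a barcoded bead, gave a median of 8558 counts from 3568 genes per cell. Technical replicates 4 and 6 shared 59 cell barcodes, where the next pair shared 4, and were treated as 1 library. The resulting 36 libraries kept between 70 and 548 cells and between 637680 and 7921171 counts. Their names fall into 3 series, JD with 15 libraries, PZ47-PZ48 with 15 and PZ58 with 6. Fibroblast markers were abundant in both classes. Their summed level ranged from 21910.0 to 35369 CPM (counts scaled to the total of each sum) over the libraries in high Meis1 cells, with a median of 28284 CPM, and from 18372 to 34255 CPM in no Meis1 cells, with a median of 29225 CPM.

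The JD libraries held 212 high Meis1 cells among 3294 (6.44%), the PZ47-PZ48 libraries 193 among 3767 (5.12%) and the PZ58 libraries 78 among 1502 (5.19%). The share ran from 1.61% to 12.0% over the libraries. The libraries also split by the level of Rps27a, with at least 728 CPM in 10 and at most 15.6 CPM in 26. High Meis1 cells were 5.10% of the cells in the former and 5.86% in the latter. The labels do not explain this split. Depth moved with the count of Meis1: the median cell had 20161 counts in total among high Meis1 cells and 7063 among no Meis1 cells. A count of 0 does not show that a cell lacked the transcript. Free RNA can also give counts to cells that do not express a gene. In the cluster led by macrophage genes, 7 of 27 cells held a Meis1 count (25.9%, median 6761 counts per cell), and in the cluster led by glial genes 19 of 96 did (19.8%, median 6613.5 counts). The share was 39.7% of the 7005 cells in clusters with no cell type name (median 8473 counts).

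**Figure D1:**
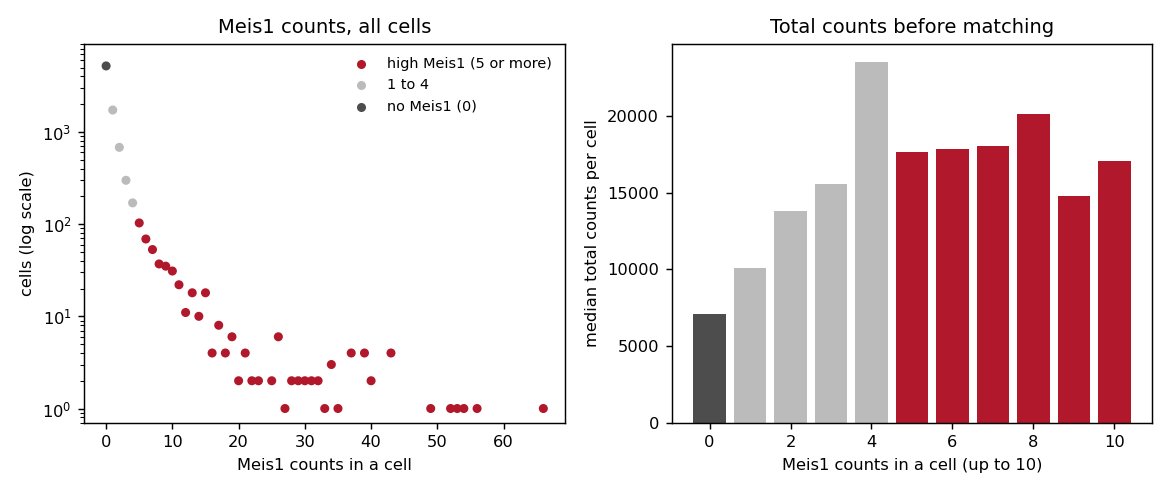
Left, number of cells (log scale) at each count of Meis1; right, median total counts per cell by count of Meis1, before matching. High Meis1 cells hold 5 to 66 counts of the gene, and the median total is 7063 counts in cells without a Meis1 count.

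Each high Meis1 cell was paired with the no Meis1 cell of its library that was nearest in total counts. This gave 481 pairs in 35 libraries; a library with 2 high Meis1 cells was left out. The median totals after pairing were 20147 counts in high Meis1 cells and 19321 in no Meis1 cells, and 69.9% of the pairs lay within 10% of each other. The high Meis1 sums still held 33.5% more counts. The comparison over the 377 pairs within 10%, whose sums differed by 0.695%, is given beside results whose call it changes.

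Of 14522 genes tested, 80 differed between high Meis1 and no Meis1 cells, 40 higher and 40 lower (0.551% of the genes tested, 0.275% in each direction). The test was edgeR's quasi-likelihood test on counts summed per library and class, at a Benjamini-Hochberg adjusted p under 0.05; 1240 genes had an unadjusted p under 0.05. The median log2 fold change over all tested genes was 0.03. Among the called genes, 21 of the higher and 12 of the lower ones differed by more than 2-fold. Within the 377 closer pairs 38 genes were higher and 43 lower, and 51 of the 79 called genes tested there were called again. These pairs reuse cells of the first comparison; all 79 genes had the same sign, as did 82.1% of all genes tested in both. Without the 5% deepest cells, 25 of 79 were called again, over 377 pairs. Beside the genes whose values in that setting are given below, Hopxos, Peg3, Vldlr, Sox11, Gm26735 and Lox were not called there. Of the 70 called genes tested in each library series alone, 70 had the same sign in all 3; these libraries are part of the fit that called them.

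The named genes with the greatest excess in high Meis1 cells were Rgs5, Ppp1r14c, the Ugt1a genes and Hopx. Rgs5 encodes a regulator of G protein signalling known as a marker of pericytes. Ppp1r14c encodes an inhibitor of protein phosphatase 1. The Ugt1a genes encode enzymes that attach glucuronic acid to bilirubin, hormones and drugs. Hopx encodes a homeodomain protein that does not bind DNA and acts in heart development. Promoter windows of the first 3 of these loci are shown because Meis1 is a DNA-binding factor. Each runs from 250 bases before the transcript start to 50 bases after it, from RefSeq (GRCm38.p6). Capitals mark TGACAG, the core sequence bound by Meis proteins, or its reverse complement CTGTCA, and a window without capitals holds neither.
Rgs5 (chr1:169655251-169655550, plus strand): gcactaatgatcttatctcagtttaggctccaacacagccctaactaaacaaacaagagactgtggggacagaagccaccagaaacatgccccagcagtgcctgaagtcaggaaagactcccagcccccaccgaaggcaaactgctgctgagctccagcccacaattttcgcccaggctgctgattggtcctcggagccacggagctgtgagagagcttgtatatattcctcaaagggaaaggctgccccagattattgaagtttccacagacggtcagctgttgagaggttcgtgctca
Ppp1r14c (chr10:3365900-3366199, plus strand): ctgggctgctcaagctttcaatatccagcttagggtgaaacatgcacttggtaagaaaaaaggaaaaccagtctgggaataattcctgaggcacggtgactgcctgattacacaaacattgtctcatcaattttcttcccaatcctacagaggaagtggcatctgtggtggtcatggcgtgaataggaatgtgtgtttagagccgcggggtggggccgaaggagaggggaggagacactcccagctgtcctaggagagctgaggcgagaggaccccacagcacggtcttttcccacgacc
Ugt1a1 (chr1:88211709-88212008, plus strand): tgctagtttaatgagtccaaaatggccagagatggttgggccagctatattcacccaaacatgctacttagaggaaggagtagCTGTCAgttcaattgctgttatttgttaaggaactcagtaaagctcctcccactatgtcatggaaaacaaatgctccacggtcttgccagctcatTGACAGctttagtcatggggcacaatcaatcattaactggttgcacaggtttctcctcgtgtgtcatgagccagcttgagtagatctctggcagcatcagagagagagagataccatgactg
The Ugt1a1 window held 2 matches and was chosen among the Ugt1a windows as the one with the most. The motif was searched on both strands and was found in 16.8% of the 13837 windows of tested genes. A motif comparison between called and other genes is void, because 30 of the 40 higher genes (75%) and 26 of the 40 lower genes (65%) had a window, below the 80% set as the minimum. A match describes the sequence and is not a binding site.

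Rgs5 had between 0 and 1152 CPM in the high Meis1 sums of the 35 libraries, with a median of 12.7 CPM, and between 0 and 39.2 CPM in the no Meis1 sums, with a median of 2.45 CPM. It was higher in high Meis1 cells in 22 libraries and lower in 6, and the ranges overlapped, as they did for every gene described by library below. Its log2 fold change was 2.37 ± 0.44 (SE; edgeR adjusted p = 0.00634). A single high Meis1 cell held 529 of its 1062 counts in that class. With counts capped at 10 per cell and gene, an addition made after seeing the data, the log2 fold change was 1.32. Without cells of clusters named after another cell type it was 1.43 and did not pass (edgeR adjusted p = 0.0568).

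Ppp1r14c ranged from 0 to 168.7 CPM in high Meis1 sums, with a median of 9.70 CPM, and from 0 to 33.5 CPM in no Meis1 sums, with a median of 2.68 CPM. It was counted in 58 high Meis1 cells and in 26 no Meis1 cells. Its log2 fold change was 1.56 ± 0.35 (SE; edgeR adjusted p = 0.0198), with a higher sum in 22 of 35 libraries.

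All 9 tested genes of the Ugt1a locus on chromosome 1 were called higher, but they are not separate results. Each Ugt1a gene has its own first exon and shares the remaining exons with the others, and their counts were nearly the same. Ugt1a1 had 218 counts in 88 high Meis1 cells and 58 in 43 no Meis1 cells. It ranged from 0 to 81.5 CPM in high Meis1 sums, with a median of 10.6 CPM, and from 0 to 25.7 CPM in no Meis1 sums, with a median of 3.82 CPM. Its log2 fold change was 1.38 ± 0.31 (SE; edgeR adjusted p = 0.0156), with a higher sum in 24 of 35 libraries. Without the 5% deepest cells it was 0.88 (edgeR adjusted p = 0.400) and did not pass, and in the 10 libraries with many Rps27a counts it was 0.41, also short of the threshold. Ugt1a6a alone among the named Ugt1a genes did not pass in the closer pairs, at 1.34 (edgeR adjusted p = 0.0699). With the locus set aside, 31 genes were higher.

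Hopx had a median of 13.2 CPM over the high Meis1 sums (0 to 212 CPM) and of 4.37 CPM over the no Meis1 sums (0 to 45.9 CPM). Its log2 fold change was 1.36 ± 0.33 (SE; edgeR adjusted p = 0.0367), and 1 cell held 210 of its 541 counts in high Meis1 cells. In the pairs within 10% it was 0.94 and did not pass (edgeR adjusted p = 0.153), nor did it without cells of clusters named after another cell type, at 1.22 (edgeR adjusted p = 0.0930), or without the 5% deepest cells, at 1.29 (edgeR adjusted p = 0.117). Hopxos, which overlaps Hopx on the opposite strand, was called higher as well, at 2.56 ± 0.54 (SE; edgeR adjusted p = 0.0156), with 48 of 107 high Meis1 counts in 1 cell. It did not pass in the closer pairs, at 1.46 (edgeR adjusted p = 0.378). Their reads cannot be told apart, since the strand setting of the counting is not given in the sources used here.

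Some called genes with the greatest fold changes rested on very few cells and were not tested in every library series. They fell outside the naming rule, which asks for the same sign in each series, and are named after their values were seen. Cyp11a1, which encodes the first enzyme of steroid hormone synthesis, had 379 counts in high Meis1 cells, 376 of them in 1 cell. Klk1b26, a kallikrein gene, had 97 of 141 counts in 1 high Meis1 cell. In all, 6 of the 40 higher genes and 0 of the 40 lower genes had more than 50% of their counts in 1 cell.

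Gm16140 lies inside the Meis1 gene on the opposite strand (chr11:19009128-19011183, GRCm38, plus strand), and an exon of it overlaps an exon of Meis1 (chr11:18879817-19018985, minus strand). It had 75 counts in 64 high Meis1 cells and 0 in no Meis1 cells. Over all 8563 cells it was counted in 283, and 280 of these held a Meis1 count. Its reads cannot be told apart from those of Meis1 without the strand, so it is not independent of the rule and no fold is given. The other tested genes within 500 kb of Meis1 did not pass. Gm16141, also antisense within Meis1, had a log2 fold change of 1.08 ± 0.57 (SE; edgeR adjusted p = 0.642), and the long noncoding RNA Gm12022 had 1.15 ± 0.48 (SE; edgeR adjusted p = 0.454).

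Other genes were higher by smaller amounts. Of those in this and the next paragraph, Sox4 and Trp53inp1 came from the naming rule and the rest were chosen after their values were seen. Igfbp3, which encodes a binding protein for insulin-like growth factors, ranged from 14.5 to 2154 CPM in high Meis1 sums (median 290.2 CPM) and from 42.9 to 631 CPM in no Meis1 sums (median 161 CPM). Its log2 fold change was 0.72 ± 0.18 (SE; edgeR adjusted p = 0.0374); without cells of clusters named after another cell type it was 0.62 and did not pass (edgeR adjusted p = 0.216). Peg3, an imprinted gene for a zinc finger protein, was higher in 29 of 35 libraries, with medians of 365 CPM in high Meis1 and 197 CPM in no Meis1 sums. It stood at 0.59 ± 0.13 (SE; edgeR adjusted p = 0.0142); in the closer pairs it was 0.44 (edgeR adjusted p = 0.0619) and did not pass. Vldlr, the receptor for very low density lipoprotein and reelin, was higher in 31 libraries, with a log2 fold change of 0.53 ± 0.12 (SE; edgeR adjusted p = 0.0250); without cells of clusters named after another cell type it was 0.57 (edgeR adjusted p = 0.0699) and did not pass. With counts capped at 10 per cell and gene, Igfbp3 stood at 0.31 and Peg3 at 0.24.

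Sox4 and Sox11, related HMG-box transcription factors, were both higher in high Meis1 cells. Sox4 ranged from 146 to 434 CPM in high Meis1 sums, with a median of 294 CPM, and from 78.3 to 531 CPM in no Meis1 sums, with a median of 203 CPM. It was higher in 27 of 35 libraries, and its log2 fold change was 0.38 ± 0.08 (SE; edgeR adjusted p = 0.00784). With counts capped at 10 per cell and gene it was 0.13 and did not pass (edgeR adjusted p = 0.208), nor did it without the 5% deepest cells, at 0.36 (edgeR adjusted p = 0.0887). The long noncoding RNA gene Gm26735 overlaps Sox4 on the opposite strand and was called higher as well, at 0.40 (edgeR adjusted p = 0.00626). Reads in their overlap cannot be told apart without the strand setting. Sox11 was at 0.59 ± 0.15 (SE; edgeR adjusted p = 0.0438), and at 0.46 in the closer pairs (edgeR adjusted p = 0.270). Trp53inp1, a target of p53, had medians of 83.3 CPM in high Meis1 and 64.1 CPM in no Meis1 sums and a log2 fold change of 0.45 ± 0.11 (SE; edgeR adjusted p = 0.0320); without the 5% deepest cells it was 0.38 (edgeR adjusted p = 0.211) and did not pass.

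**Figure D2:**
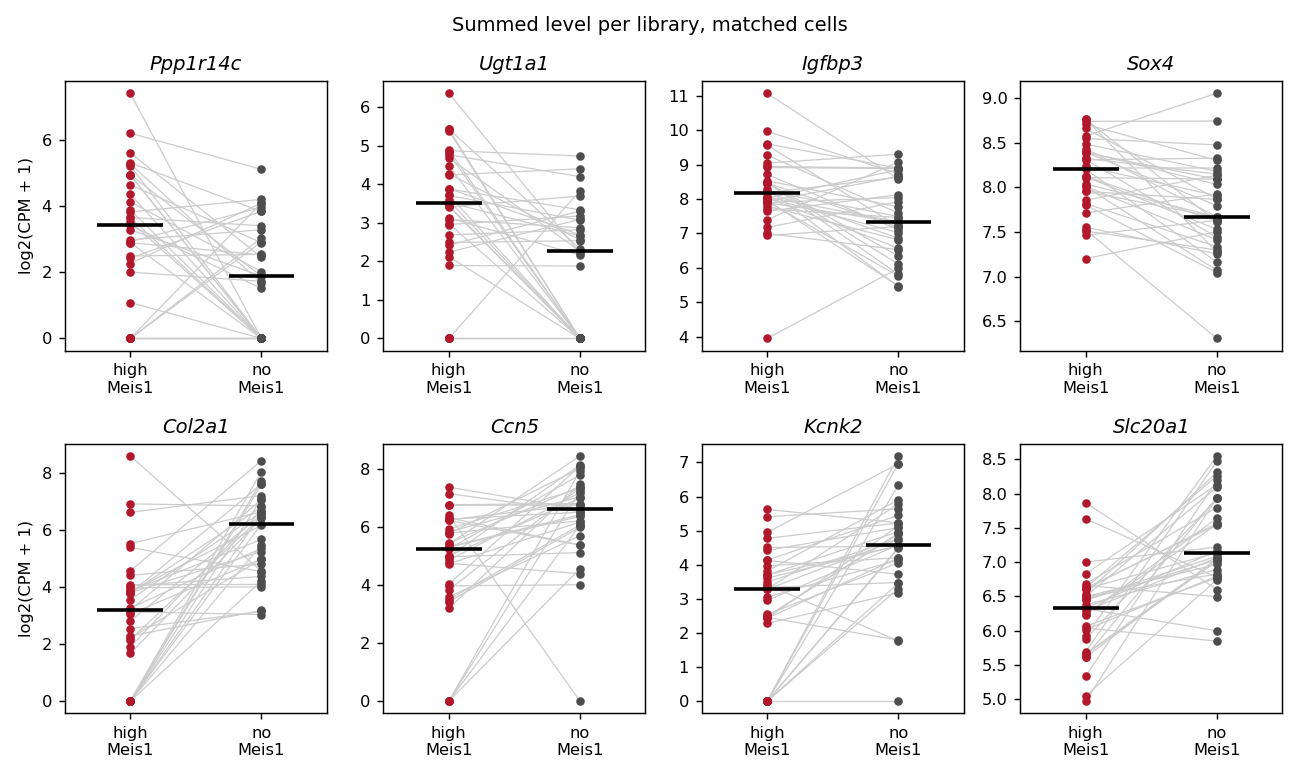
Level of 8 called genes in the summed high Meis1 cells (left of each pair) and no Meis1 cells (right) of each of the 35 libraries, as log2(CPM + 1); lines join the sums of 1 library and black bars are medians. Ppp1r14c, Ugt1a1, Igfbp3 and Sox4 have the higher median in high Meis1 cells and Col2a1, Ccn5, Kcnk2 and Slc20a1 the lower, with overlapping ranges in each.

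Among the genes lower in high Meis1 cells was Col2a1, which encodes the main collagen of cartilage. It ranged from 0 to 383 CPM in high Meis1 sums, with a median of 8.15 CPM, and from 7.19 to 341 CPM in no Meis1 sums, with a median of 72.7 CPM. It was lower in high Meis1 cells in 31 of 35 libraries; 8 high Meis1 sums and 0 no Meis1 sums held no count. Its log2 fold change was -2.10 ± 0.33 (SE; edgeR adjusted p = 0.000561). It was the 1 gene called among 11 tested markers of chondrocytes, whose median was -0.13. The cartilage regulator Sox9 stood at 0.10 ± 0.23 (SE; edgeR adjusted p = 0.984) and Hapln1, a cartilage link protein gene, at -1.53 ± 0.50 (SE; edgeR adjusted p = 0.235).

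Coch, Ccn5, Ccn2, Itih2, Il1rn and Rspo2 were also lower. Coch, which encodes the matrix protein cochlin, had a median of 2.14 CPM in high Meis1 sums (0 to 19.5 CPM) and of 7.28 CPM in no Meis1 sums (0 to 209 CPM), and a log2 fold change of -2.26 ± 0.42 (SE; edgeR adjusted p = 0.00626). It did not pass without the 5% deepest cells, at -1.41 (edgeR adjusted p = 0.343), or with DESeq2 (adjusted p = 0.0605). Ccn5, a matricellular protein gene, had medians of 36.8 CPM in high Meis1 sums (0 to 163 CPM) and 96.6 CPM in no Meis1 sums (0 to 344 CPM). It was lower in 29 of 35 libraries, at -1.34 ± 0.24 (SE; edgeR adjusted p = 0.00313). Its relative Ccn2, also known as connective tissue growth factor, was at -0.76 ± 0.15 (SE; edgeR adjusted p = 0.00784). Itih2, whose protein binds hyaluronan, was at -1.67 ± 0.38 (SE; edgeR adjusted p = 0.0206), with no count in 18 of the high Meis1 sums and 8 of the no Meis1 sums; without the 5% deepest cells it was -1.60 (edgeR adjusted p = 0.0887). Il1rn, the gene of the interleukin-1 receptor antagonist, was at -1.87 ± 0.37 (SE; edgeR adjusted p = 0.00784). Rspo2, which encodes an amplifier of Wnt signals, was at -1.16 ± 0.25 (SE; edgeR adjusted p = 0.0156) and did not pass in the closer pairs, at -1.07 (edgeR adjusted p = 0.135), or without the 5% deepest cells, at -0.83 (edgeR adjusted p = 0.457).

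Slc20a1, Kcnk2, Aqp1, Gjb2 and Enpp1 were lower as well. Slc20a1 encodes a sodium-dependent phosphate transporter. It ranged from 30.4 to 232 CPM in high Meis1 sums, with a median of 79.4 CPM, and from 56.6 to 373 CPM in no Meis1 sums, with a median of 139.8 CPM. It was lower in 30 of 35 libraries, with a log2 fold change of -1.01 ± 0.14 (SE; edgeR adjusted p = 0.000108), or -0.62 with capped counts, where it also passed. Kcnk2, a potassium channel gene, was lower in 30 libraries, with medians of 8.73 CPM in high Meis1 and 22.9 CPM in no Meis1 sums and a log2 fold change of -1.39 ± 0.24 (SE; edgeR adjusted p = 0.00175). The water channel gene Aqp1 was at -1.54 ± 0.33 (SE; edgeR adjusted p = 0.0142) and, without the 5% deepest cells, at -1.35 (edgeR adjusted p = 0.135). Gjb2, which encodes the gap junction protein connexin 26, was at -1.93 ± 0.43 (SE; edgeR adjusted p = 0.0159) and did not pass in the closer pairs, at -1.47 (edgeR adjusted p = 0.313), or without the 5% deepest cells, at -1.36 (edgeR adjusted p = 0.361). Enpp1, whose enzyme makes pyrophosphate, was at -1.01 ± 0.22 (SE; edgeR adjusted p = 0.0156) and did not pass in either setting, at -0.93 (edgeR adjusted p = 0.124) in the closer pairs and -1.03 (edgeR adjusted p = 0.0546) without the deepest cells.

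Of 25 tested fibroblast markers 1 was called, and their median log2 fold change was -0.02. This gene, Vim, which encodes the intermediate filament vimentin, ranged from 1636 to 5173 CPM in high Meis1 sums, with a median of 3567 CPM, and from 2295 to 7092 CPM in no Meis1 sums, with a median of 4357 CPM. It was lower in 24 of 35 libraries, at -0.28 ± 0.07 (SE; edgeR adjusted p = 0.0438). Lox and Loxl3, named after their values were seen, encode enzymes that cross-link collagen. Lox had medians of 1419 CPM in high Meis1 and 2124 CPM in no Meis1 sums and a log2 fold change of -0.41 ± 0.10 (SE; edgeR adjusted p = 0.0424); without cells of clusters named after another cell type it was -0.44 (edgeR adjusted p = 0.0837) and did not pass. Loxl3 had medians of 122 CPM in high Meis1 and 168 CPM in no Meis1 sums and a log2 fold change of -0.47 ± 0.09 (SE; edgeR adjusted p = 0.00655). Among the markers not called, the collagen gene Col1a1 stood at -0.07 ± 0.07 (SE; edgeR adjusted p = 0.872).

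Called genes overlap with the leading genes of some clusters of cells, which were formed from all genes except Meis1. A cluster of 455 cells is led by Col10a1 and Col2a1 and has Itih2 and Kcnk2 among its top 10 genes. A cluster of 462 cells has Gjb2 among them, and one of 304 cells is led by the Ugt1a genes. Together these 3 clusters held 45 of the 481 paired high Meis1 cells and 87 of the 481 paired no Meis1 cells. Since called genes helped to define them, their sizes are no separate result. Outside them, over 436 high Meis1 and 394 no Meis1 cells, Col2a1 stood at 15.0 CPM in high Meis1 cells and 77.8 CPM in no Meis1 cells. Gjb2 stood there at 5.11 CPM in high Meis1 and 14.2 CPM in no Meis1 cells, and Il1rn at 10.7 CPM in high Meis1 and 26.7 CPM in no Meis1 cells. Ugt1a1 stood at 11.8 CPM in high Meis1 and 3.21 CPM in no Meis1 cells. Itih2 stood at 2.34 CPM in high Meis1 and 9.53 CPM in no Meis1 cells, and Kcnk2 at 11.5 CPM in high Meis1 and 25.6 CPM in no Meis1 cells. Il1rn is not among the top 10 genes of these clusters. These values come from cells of the comparison that called the genes, so their direction is no separate result. They pool the cells of all libraries and carry no test. The part of cluster make-up in the differences was not tested.

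Some clusters without a called gene among their top 10 genes held many high Meis1 cells. A cluster led by Sost, F13a1 and Scg2 held 29 in 191 cells (15.2%), with 29 paired high Meis1 and 12 paired no Meis1 cells. Its top 10 genes include the pool factor Mesp1. A cluster led by Thbs4 and Cck held 30 in 232 (12.9%), with 30 paired high Meis1 and 7 paired no Meis1 cells. A cluster led by Krt8 and Krt18 held 48 in 428 (11.2%), with 48 paired high Meis1 and 21 paired no Meis1 cells. Other such clusters held few. One led by Esco2 and Slfn9 held 48 in 1079 (4.45%), with 46 paired high Meis1 and 73 paired no Meis1 cells. One led by Cenpf and Aspm held 42 in 1194 (3.52%), with 42 paired high Meis1 and 54 paired no Meis1 cells. Genes of the S phase and of the G2 and M phase lists, respectively, are among their top 10 genes. Among cell type names given from markers, the share of high Meis1 cells was 9.27% in skeletal muscle-like cells (14 cells; exact binomial 95% interval 5.16 to 15.1%). It was 5.83% in smooth muscle-like cells (62 of 1064; 4.50 to 7.41%), which pool a cluster with 62 of 856 cells (7.24%) and a shallow one with 0 of 208 (median 3823 counts). It was 3.64% in mesothelium-like cells (8 of 220; 1.58 to 7.04%). High Meis1 were 2 of 27 macrophage-like cells (7.41%; 0.910 to 24.3%) and 2 of 96 glia-like cells (2.08%; 0.253 to 7.32%). The intervals cover counting error only, depth differed between clusters, and no test was made between them.

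None of 16 tested genes of the TALE class and its Hox cofactors passed edgeR's test, and their median log2 fold change was 0.14, beside 0.03 over all genes. Meis2, a close relative of Meis1, had medians of 98.9 CPM in high Meis1 and 78.2 CPM in no Meis1 sums. It was higher in 26 of 35 libraries and stood at 0.36 ± 0.10 (SE; edgeR adjusted p = 0.144). No Hox gene passed either, over 10 tested of paralogue groups 1 to 4, 11 of groups 5 to 8 and 12 of groups 9 to 13. Hoxa9 stood at 0.16 ± 0.25 (SE; edgeR adjusted p = 0.955). An unadjusted p under 0.05 was reached by 2 genes of the TALE list and 3 Hox genes of groups 5 to 8, and by 0 of the other Hox genes.

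Of 35 tested genes of limb, trunk and face patterning 1 passed. This was the forkhead gene Foxc1, with medians of 24.2 CPM in high Meis1 and 43.5 CPM in no Meis1 sums and a log2 fold change of -0.74 ± 0.18 (SE; edgeR adjusted p = 0.0371). Without cells of clusters named after another cell type Foxc1 was at -0.66 (edgeR adjusted p = 0.126), about as large but short of the threshold, and without the 5% deepest cells at -0.76 (edgeR adjusted p = 0.0743). Its relative Foxc2 stood at -0.69 ± 0.23 (SE; edgeR adjusted p = 0.221). Among 10 tested genes of Meis1-driven leukaemia and blood stem cells Sox4 passed, and Runx1, a blood regulator, stood at 0.23 ± 0.11 (SE; edgeR adjusted p = 0.545).

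Genes of glycolysis and the hypoxia response gave 2 calls, both lower, among 20 tested. The median log2 fold change was -0.16, and 1 of the 20 was positive. Their summed level had a median of 2308 CPM in high Meis1 and 2676 CPM in no Meis1 sums and was higher in high Meis1 cells in 6 of 35 libraries. The called genes were Adm, which encodes the peptide adrenomedullin, at -0.86 ± 0.19 (SE; edgeR adjusted p = 0.0156), and Eno1, the glycolytic enzyme enolase, at -0.30 ± 0.07 (SE; edgeR adjusted p = 0.0308). Ldha, lactate dehydrogenase, stood at -0.28 ± 0.08 (SE; edgeR adjusted p = 0.0927). In the closer pairs Eno1 was at -0.48 (edgeR adjusted p = 0.000977), and Adm, at -0.72, did not pass (edgeR adjusted p = 0.159), nor did Adm without the 5% deepest cells, at -0.78 (edgeR adjusted p = 0.0735).

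Cell cycle genes gave 0 calls. The 20 tested genes of S phase had a median log2 fold change of -0.23, with 2 positive, and the 24 of G2 and M phase had a median of -0.12, with 7 positive. An unadjusted p under 0.05 was reached by 1 gene of S phase and 0 of G2 and M phase. The 6 tested inhibitors of cyclin-dependent kinases had a median of 0.11 and 0 calls.

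The BMP and TGF-beta list had 1 call among 16 tested, Ccn2. Id2, a BMP target, stood at 0.51 ± 0.16 (SE; edgeR adjusted p = 0.164). Markers of cardiomyocytes (19 tested), skeletal muscle (24), smooth muscle (14), mesothelium and epicardium (18), endothelium (9), macrophages and blood (9), nerve and glia (8), osteoblasts (5), keratinocytes and other epithelia (4) and adipocytes (7) gave 0 calls. The summed cardiomyocyte markers ranged from 76.9 to 5134 CPM in high Meis1 sums and from 111 to 5099.5 CPM in no Meis1 sums, higher in high Meis1 cells in 21 of 35 libraries. The sarcomere gene Myh6 had a median of 0 CPM in high Meis1 and 0 CPM in no Meis1 sums. The median log2 fold change was 0.45 for skeletal muscle markers, 21 of 24 positive, and 0.18 for cardiomyocyte markers, 14 of 19 positive. An unadjusted p under 0.05 was reached by 1 gene of each of these lists. In the closer pairs of cells with 2 to 4 counts of Meis1, described below, these medians were -2.25 and -0.85. The median log2 fold change of mesothelium markers was -0.35 over all pairs and 0.58 in the closer pairs, so its sign turned with the pairing. The retinoic acid (9), Wnt and Hedgehog (15), interferon (19), immediate early (15) and mitochondrially encoded (7) lists also gave 0 calls, and the p53 list (14) gave 1, Trp53inp1.

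**Figure D3:**
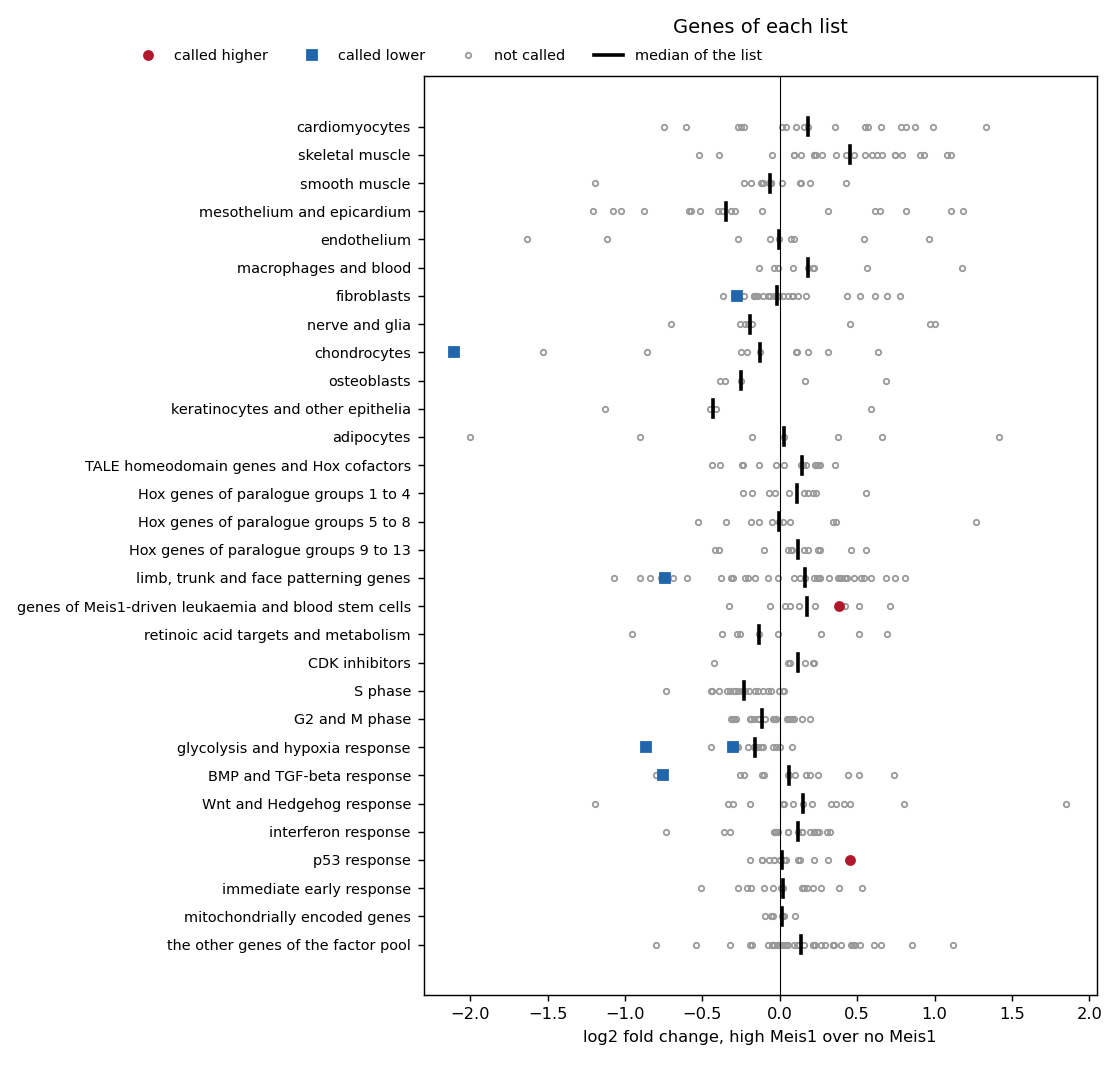
Log2 fold change, high Meis1 over no Meis1, of every tested gene of 30 lists; filled symbols are genes called higher or lower, open circles genes not called, and black bars the median of each list. Most medians lie near 0, and 8 filled symbols appear.

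Transcripts of more of the other pool genes were counted in high Meis1 than in no Meis1 cells. Of the 42 other genes of the pool in the files, a high Meis1 cell held 14.1 ± 2.12 and a no Meis1 cell 12.2 ± 1.72 (mean of library means ± SD, n = 35 libraries). The difference of 1.85 ± 0.273 (SE) was positive in 32 libraries (two-sided sign-flip permutation test over libraries, p = 1e-05, the smallest that 100000 resamples can give, adjusted p = 2e-05). In the pairs within 10% the values were 12.4 ± 1.66 in high Meis1 and 11.4 ± 1.73 in no Meis1 cells, a difference of 1.03 ± 0.207 (SE, n = 34 libraries; adjusted p = 8e-05, same permutation test).

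In those pairs the share of cells with a count was higher in high Meis1 cells for 32 of the 42 pool genes, lower for 7 and equal for 3. The same tally over all genes was not made. In these pairs more genes of any kind were also counted per high Meis1 cell, by 76.3 ± 19.4 (SE). The heart regulator Gata6 was counted in 132 of 377 high Meis1 cells (35.0%) and 89 of 377 no Meis1 cells (23.6%). Mef2c was counted in 41.1% of high Meis1 and 30.2% of no Meis1 cells, and Foxn4 in 13.8% of high Meis1 and 5.57% of no Meis1 cells. In the opposite direction, Nr2f2 was counted in 50.7% of high Meis1 and 54.4% of no Meis1 cells. In edgeR's test of levels over all 481 pairs, 0 of 40 tested pool genes passed, and 28 had a positive log2 fold change. An unadjusted p under 0.05 was reached by 9 pool genes, beside 1240 of all 14522 genes tested. Of the 9 pool genes, Msx2 (-0.80), Shox2 (-0.54), Rarg (-0.32) and Mef2a (-0.18) were lower in high Meis1 cells and the others higher. The median log2 fold change of the 40 pool genes was 0.14, beside 0.03 over all tested genes. Mef2c stood at 0.21 over all 481 pairs (edgeR adjusted p = 0.926). In the closer pairs of cells with 2 to 4 counts of Meis1, described below, Mef2c was called lower, at -1.03 (edgeR adjusted p = 0.00691). Gata6, at 0.48 (edgeR adjusted p = 0.139), and Foxn4, at 0.95 (edgeR adjusted p = 0.152), were not called there. The part of the other pool factors in the differences above was not tested.

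**Figure D4:**
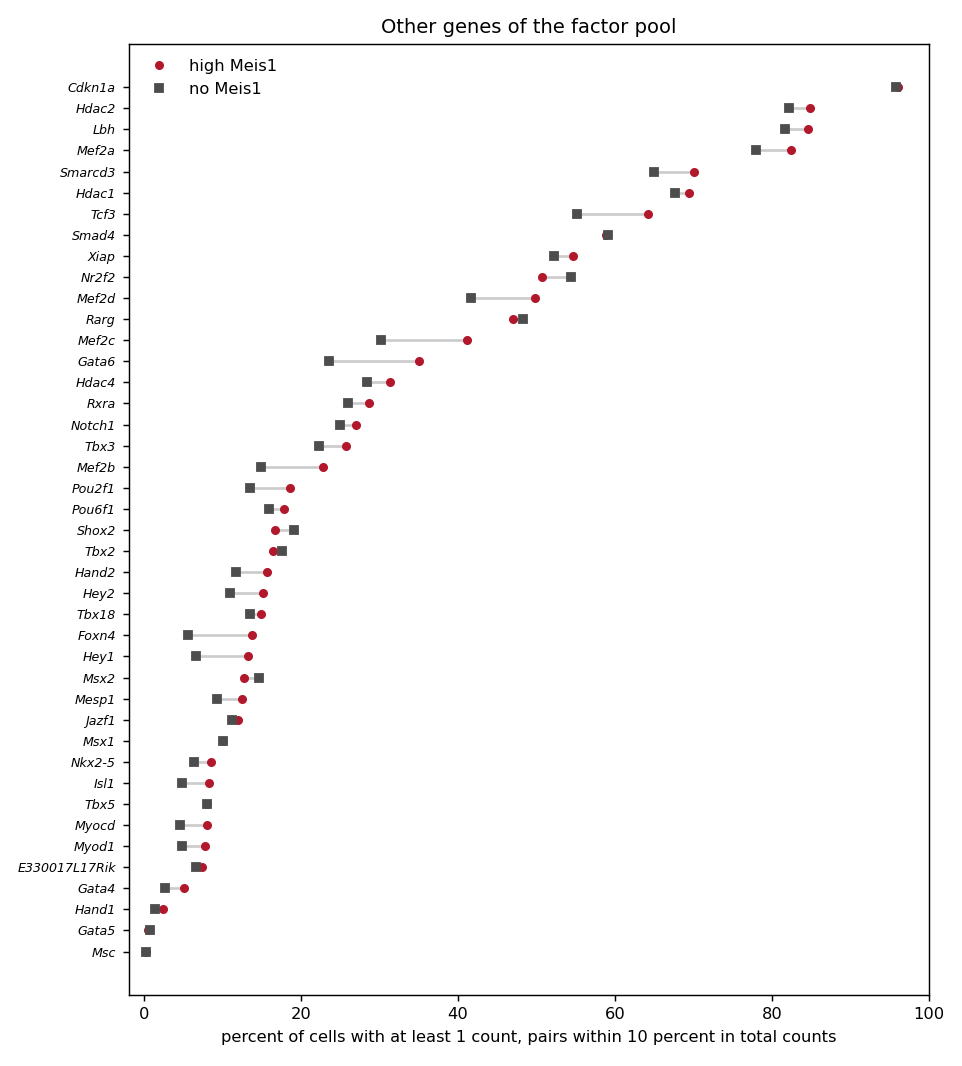
Percent of high Meis1 cells and of no Meis1 cells with at least 1 count of each other pool gene, in the 377 pairs within 10% of each other in total counts. The high Meis1 symbol lies to the right for 32 of 42 genes.

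More genes were counted per cell in high Meis1 cells, 5708 ± 979, against 5286 ± 773 in no Meis1 cells (mean of library means ± SD, n = 35; adjusted p = 2e-05, sign-flip permutation test). In the pairs within 10% the difference was 76.3 ± 19.4 genes (SE; adjusted p = 0.000587, same permutation test). Transcripts of ribosomal protein genes took 4.22 ± 0.982% of the counts in high Meis1 cells and 4.50 ± 0.965% in no Meis1 cells, and were higher in 10 of 35 libraries (adjusted p = 0.000880, same permutation test). Mitochondrial transcripts took 0.596 ± 0.160% in high Meis1 cells and 0.567 ± 0.115% in no Meis1 cells, and this difference did not pass (adjusted p = 0.289, same permutation test).

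The called genes were then measured in cells that the comparison had not used, those with 2 to 4 counts of Meis1 and no Meis1 cells not paired before. They come from the same libraries and culture. Over 831 pairs within 10% in total counts, 1.21% of 14098 genes were called by edgeR, 63 higher (0.447%) and 108 lower (0.766%). This closer pairing was chosen after seeing the data; pairing at any distance, over 1150 pairs, called 225 of 15226 genes (1.48%), 80 higher (0.525%) and 145 lower (0.952%), and 68 of 77 earlier calls had the same sign. In the closer pairs 72 of 76 did, and 69 had a smaller change; over all 13985 genes tested in both, 57.9% had the same sign.

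There 40 of 40 lower genes and 32 of 36 higher genes kept their sign, and 18 genes were called again. The 32 include the 9 Ugt1a genes, which are not separate results. They also include Gm16140, which is not independent of the rule and is among the 18. Col2a1 stood at -1.87 ± 0.25 (SE; edgeR adjusted p = 1.96e-06) on the log2 scale, 2 to 4 counts over none, and Ccn5 at -1.04 ± 0.17 (SE; edgeR adjusted p = 0.000168). Slc20a1 stood at -0.68 ± 0.11 (SE; edgeR adjusted p = 4.42e-05) and Sox4 at 0.45 ± 0.08 (SE; edgeR adjusted p = 0.000137). Higher genes not called included Ugt1a1, at 0.83 ± 0.25 (SE; edgeR adjusted p = 0.0931), Rgs5, at 0.41 ± 0.38 (SE; edgeR adjusted p = 0.839), and Hopx, at -0.09 ± 0.30 (SE; edgeR adjusted p = 0.986). Ppp1r14c was not called either, at 0.44 (edgeR adjusted p = 0.847), and stood at -0.40 with pairing at any distance (edgeR adjusted p = 0.799). Lower genes not called included Gjb2, at -1.15 (edgeR adjusted p = 0.0571), and Coch, at -1.13 (edgeR adjusted p = 0.140). Nearer to 0 were Adm, at -0.29 (edgeR adjusted p = 0.589), and Ccn2, at -0.17 (edgeR adjusted p = 0.794). Rspo2 stood at -0.08 (edgeR adjusted p = 0.988) and Lox at -0.05 (edgeR adjusted p = 0.940). Cells with a single count of Meis1 gave 4 calls among 15423 genes (0.0259%), 3 higher (0.0195%) and 1 lower (0.00648%). Gm16140 was 1 of the 3 higher genes.

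**Figure D5:**
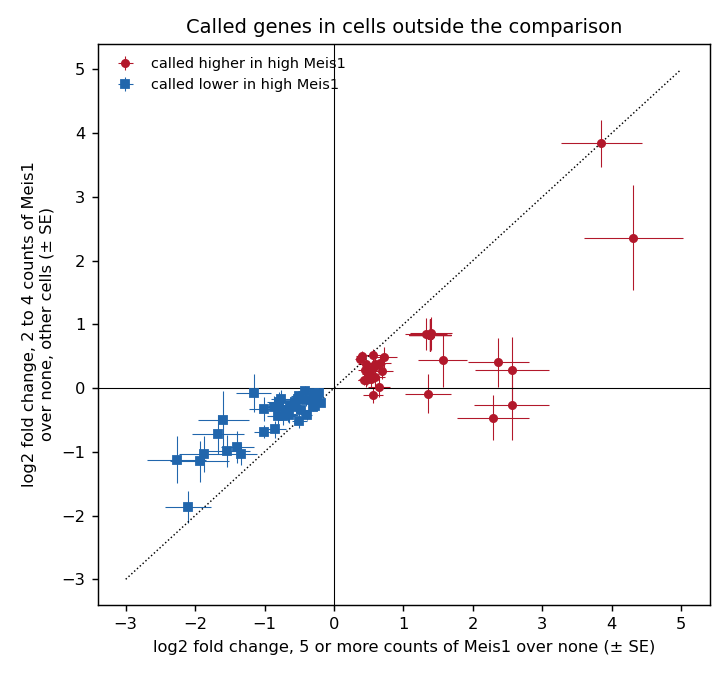
Log2 fold change of 76 genes called between high Meis1 and no Meis1 cells (horizontal axis) against their log2 fold change between cells with 2 to 4 counts of Meis1 and other no Meis1 cells (vertical axis), each ± SE; the dotted line marks equal values. All 40 genes called lower lie below 0 on both axes, and 32 of 36 called higher lie above 0 on both. The 32 include Gm16140 and the 9 Ugt1a genes.

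A count of 5 is a different share of the transcripts in a shallow and in a deep cell. Meis1 made up between 0.432 and 50.4 counts per 10000 in the high Meis1 cells, with a median of 4.46, and 226 of the 483 held at least 5 per 10000. In an addition made after seeing the data, 218 of these cells in 30 libraries were paired with no Meis1 cells, with median totals of 9987.5 counts in high Meis1 and 9885.5 in no Meis1 cells. Of 12161 genes tested 46 were called by edgeR (0.378%), 24 higher (0.197%) and 22 lower (0.181%). Of these, 14 were among the 80 called before. The cells of both sets overlap, so no sign agreement is counted.

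The pool factors Hand2 and Gata6 were among the genes called higher in these cells; the genes named here were chosen after their values were seen. Hand2, a regulator of heart development, had a median of 20.4 CPM in high Meis1 and 0 CPM in no Meis1 sums, a log2 fold change of 1.60 ± 0.37 (SE; edgeR adjusted p = 0.0378); over all 481 pairs it was 0.00. Gata6 had medians of 57.7 CPM in high Meis1 and 17.9 CPM in no Meis1 sums and a log2 fold change of 1.41 ± 0.35 (SE; edgeR adjusted p = 0.0481), or 0.61 over all pairs. Bmp4, a signalling ligand, was at 1.17 ± 0.24 (SE; edgeR adjusted p = 0.00983), or 0.06 over all pairs. Postn, the gene of the matrix protein periostin, was at 1.04 ± 0.25 (SE; edgeR adjusted p = 0.0384), or 0.78 over all pairs. None of these 4 genes passed over all pairs. Of 25 fibroblast markers tested in this set, 1 was called higher, Postn, and 2 lower, Thy1 and Vim, with a median of -0.04. Among lower genes, Thy1, a surface marker of fibroblasts, had medians of 152 CPM in high Meis1 and 297 CPM in no Meis1 sums and a log2 fold change of -0.76 ± 0.17 (SE; edgeR adjusted p = 0.0168). Anxa1, an annexin gene, was at -0.64 ± 0.11 (SE; edgeR adjusted p = 0.000995).

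In the 246 paired high Meis1 cells with under 5 counts of Meis1 per 10000, 13 of 13978 genes were called by edgeR (0.093%), 4 higher (0.0286%) and 9 lower (0.0644%). There Hand2 stood at -0.62 (edgeR adjusted p = 0.862) and Bmp4 at -0.20 (edgeR adjusted p = 0.983). Col2a1 was called in both sets, at -2.03 with at least 5 per 10000 and -2.12 with fewer. A test of the difference between the sets called 0 of 14439 genes by edgeR, with 794 at an unadjusted p under 0.05. With fewer than 5 per 10000, 50% of the pairs lay within 10%, and the high Meis1 sums held 45.02% more counts.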

How the data were processed

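The libraries of infected mouse embryonic fibroblasts hold counts of molecules per gene and cell, deposited by the authors as raw counts. Per the submitters' processing notes the tools were bcl2fastq 2.17.1.14, STAR 2.5.3a, UMI-tools and featureCounts 1.5.3, with the build mm10; the cell filter, annotation release and strand setting are not given in the sources used here. Names for 27645 of 27998 Ensembl IDs came from the files or reference tables (GENCODE M21, GRCm38), and 353 had none.

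Of 8730 barcodes, 89 shared between libraries and 78 nearly identical within one were dropped. No doublet caller was run; an alternative left out the 5% deepest cells. Kept cells had at least 1541 counts. Clusters came from scanpy 1.11.5 (Leiden, resolution 1.0) without Meis1, with values centred within the libraries of many and of few Rps27a counts.

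Counts were summed per library and class, pairing cells within the library, and tested with edgeR 4.0.16 (R 4.3.3; quasi-likelihood, TMM, library as a block) for genes with at least 20 counts; SE is the log2 fold change divided by the square root of F. The block pairs sums of the same library. Lists were counted with edgeR alone. Libraries with fewer than 3 high Meis1 cells were left out. Cell properties were compared by sign-flip permutation over libraries. On simulated data for this comparison (14289 genes), the test found 90 of 100 genes changed 2-fold and 100 of 100 changed 4-fold, with 4 false calls. The simulation used 1 common dispersion (0.0586) and no library effect, and changed only genes with at least 100 counts. It does not cover genes with fewer counts or with most counts in 1 cell, so these rates do not carry over to them. Named genes were the 12 highest and 12 lowest called ones with the same sign in each library series and at least 50 counts, up to 4 called members of each list, called pool genes and genes near Meis1. The cells, lists and rule were chosen with earlier results of these data known. Some genes are not reported here. Alternatives varied filter, scaling, tool (DESeq2 1.42.0), threshold and pairing.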

Additional observations from a re-analysis of the deposited data

Results flagged for a closer look

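The effect of Meis1 class differed between the 3 library series for 1 of 14522 genes, Lce1f, which encodes a protein of the cornified envelope of skin (edgeR interaction test, adjusted p = 0.0331; 450 genes had an unadjusted p under 0.05). In JD it had 212 counts in high Meis1 cells, 133 of them in 1 cell, and 3 in no Meis1 cells. In PZ47-PZ48 it had 5 counts in high Meis1 cells and 129 in no Meis1 cells, 111 of these in 1 cell. In PZ58 it had 4 in high Meis1 and 3 in no Meis1 cells.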

How the results depend on the processing

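The counts of genes higher and lower, 40 and 40, moved as follows (higher first). They were 168 and 127 with no filter on low counts, 85 and 80 with a threshold of 3 counts of Meis1, 8 and 12 with 8, 33 and 135 with 2 no Meis1 cells per high Meis1 cell and 22 and 31 without the 5% deepest cells. Subsets hold fewer samples by construction: 3 and 3 in JD, 1 and 0 in PZ47-PZ48, 7 and 16 in PZ58, 6 and 4 in the libraries with many Rps27a counts and 12 and 15 in those with few. Added after seeing the data were 24 and 22 with at least 5 counts of Meis1 per 10000, 4 and 9 with fewer, and 292 and 813 with counts capped at 10 per cell and gene, which takes more from the deeper high Meis1 sums and moved the median of all genes to 0.08. In the unused cells, 3 and 1 genes were higher and lower with a single count of Meis1, beside 80 and 145 with 2 to 4 counts. DESeq2 gave 43 and 54. Without the replicate block, which pairs the sums of each library, the counts were 60 and 43, and Adm, Vim, Foxc1, Sox4, Eno1 and Trp53inp1 were not past the threshold. The mitochondrial difference passed with 8 counts of Meis1 or more (0.0667 percentage points, adjusted p = 0.0311, permutation test), and the ribosomal difference did not pass with under 5 per 10000 (-0.123 points, adjusted p = 0.334, permutation test). Over 31 named genes, 647 values under the alternatives held 400 on the same side of the threshold and 247 no longer past it, with 0 reversed. These genes include Gm16140 and the 9 Ugt1a genes, and the alternatives reuse cells of the first comparison. The lack of reversals is therefore no separate result. Except where stated, the cause was not tested. Genes in few cells and shallow cells limit the precision.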
